A study of Rattus norvegicus with 6 samples.

Results

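Müller cells are the radial glia of the retina, and 10 genes for their water, acid-base and identity functions were examined: Aqp4, Mlc1, Car2, Car14, Clu, Gpr37, Cd9, Dbi, Sox2 and Sox9. They were taken by symbol, ignoring letter case, from a deposited gene table with 19623 distinct symbols, and each of the 10 matched exactly 1 row. The series holds neural retina RNA from 6 rat samples taken at postnatal day 60, in 3 groups of 2. Wild-type animals were Long Evans, which are pigmented, and had sham surgery. Rats of the Royal College of Surgeons (RCS) strain, whose photoreceptors degenerate because of a mutation in the phagocytosis receptor gene Mertk, had sham surgery or received human neural progenitor cells under the retina. Surgery was done at postnatal day 21 in all 3 groups, sham eyes received the carrier medium without cells, and in every group the sampled tissue was the graft-bearing portion of the retina or its counterpart. The labels do not say whether the 2 samples of a group came from separate animals.

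The table gives 1 value per gene in FPKM, a fragment number scaled to transcript length and to the sequencing depth, with a lower and an upper bound. Its columns carry neither sample nor group names, so the values come from 1 library or a pool, there is no replicate check, and the 3 groups cannot be compared. What can be compared is the level of one gene with that of another, per transcript length. The bounds are the authors' estimation error and do not cover the spread between animals. In bulk retina, fewer cells of a type and less RNA per cell cannot be told apart.

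Müller cells span the retina and clear potassium, water, carbon dioxide and acid that active neurons release. Water leaves through the aquaporin channel encoded by Aqp4, concentrated on end-feet at vessels and at the vitreous, next to the potassium channel encoded by Kcnj10. Carbonic anhydrases interconvert carbon dioxide and bicarbonate, and the SOX transcription factors encoded by Sox2 and Sox9 mark retinal progenitors and remain active in mature Müller glia.

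All 10 genes reached 1 FPKM, the level used here as the minimum for a detected gene, which 61.0% of all symbols in the table reached. Their median was 34.1 FPKM, against 3.17 FPKM over all symbols and 9.21 FPKM over the symbols at 1 FPKM or more. The genes spread over a wide range. Clu was the highest and Sox9 the lowest, with a ratio of 66.8 between them (95% interval 51.9 to 86.0). Together they held 0.214% of the summed FPKM, and Clu and Car2 alone made up 61.0% of that part.

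**Figure D1:**
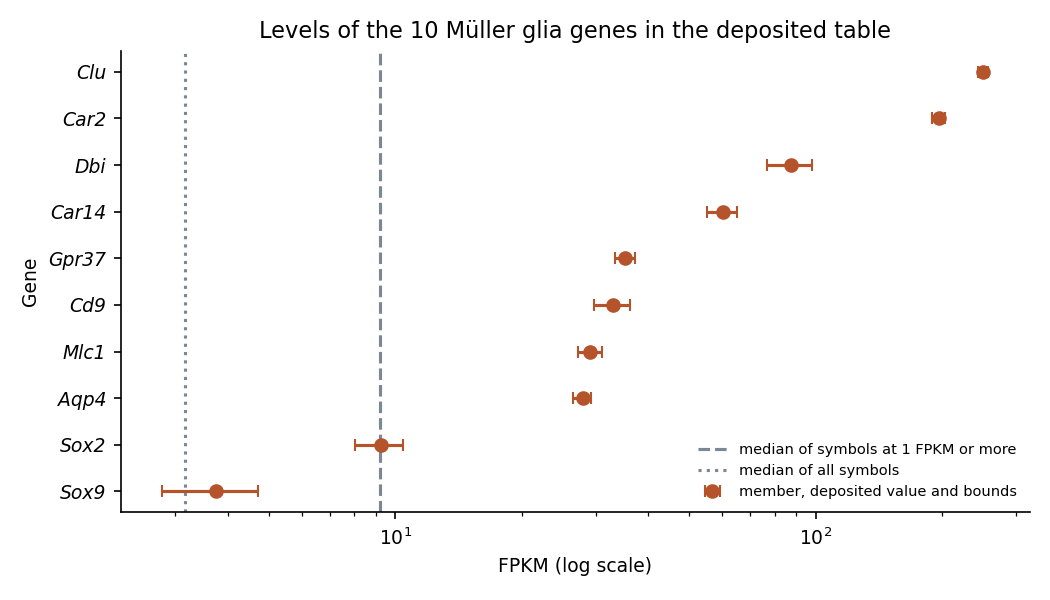
Level of each of the 10 genes in FPKM (log axis), with the deposited lower and upper bounds as bars and the medians of all symbols (dotted) and of symbols at 1 FPKM or more (dashed). Clu and Car2 stand apart at 250.4 and 197 FPKM, Gpr37, Cd9, Mlc1 and Aqp4 lie close together between 27.9 and 35.3 FPKM, and Sox9 is lowest at 3.75 FPKM.

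In descending order the genes were Clu, Car2, Dbi, Car14, Gpr37, Cd9, Mlc1, Aqp4, Sox2 and Sox9. Of the 9 ratios between neighbours in this order, 7 had a 95% interval above 1 and 2 had an interval that held 1. These 2 were Gpr37 to Cd9, at 1.07 (0.960 to 1.198), and Mlc1 to Aqp4, at 1.04 (0.962 to 1.13). Cd9 to Mlc1 lay just above, at 1.13 (1.01 to 1.27). The largest step was from Aqp4 down to Sox2, at 3.02 (2.64 to 3.46). Each ratio interval takes a deposited bound as 2 standard errors and covers estimation error alone.

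**Figure D2:**
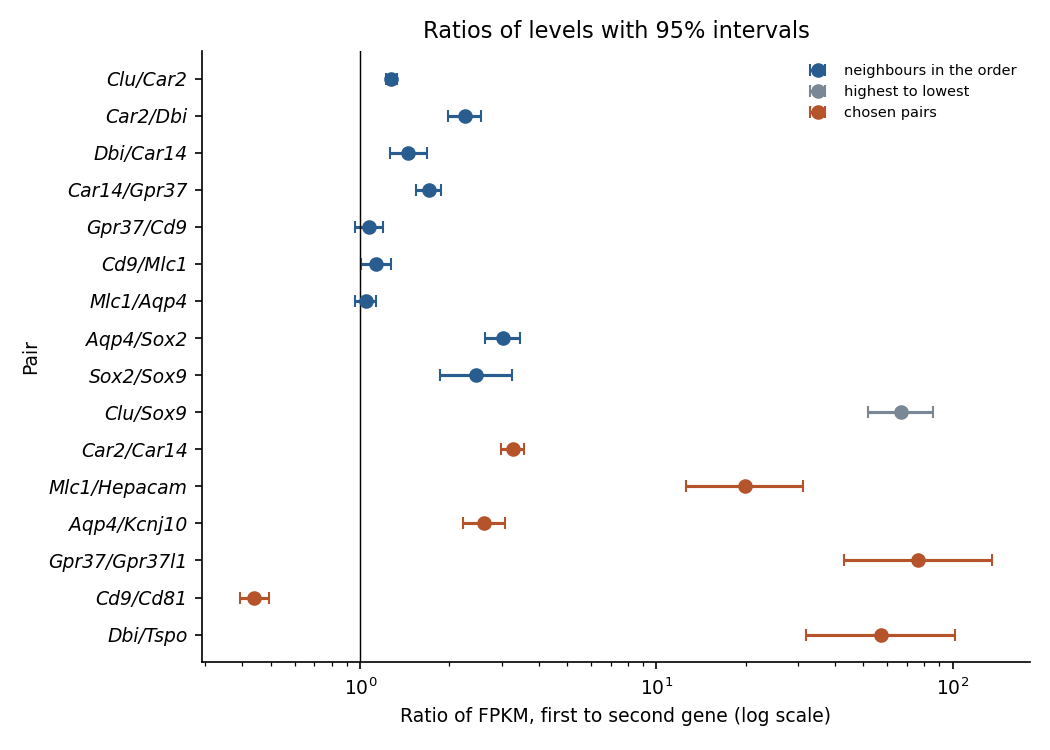
Ratio of FPKM between pairs of genes, first to second (log axis), with 95% intervals as bars: neighbours in the order of levels, the highest to the lowest gene, and pairs of a gene with a relative or partner. The intervals of Gpr37/Cd9 and Mlc1/Aqp4 cross the line at 1, while Gpr37/Gpr37l1 lies farthest right, at 76.6.

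Aqp4 stood at 27.9 FPKM (deposited bounds 26.5 to 29.3), and 10.04% of all symbols were higher. Its row (ENSRNOG00000016043) covers chromosome 18 from 6720758 to 6737507 (build rn5, as for all rows here), and no other row of the table overlaps it. Of the 12 aquaporin genes, 4 reached 1 FPKM, 5 were listed at 0 (Aqp2, Aqp7, Aqp8, Aqp9 and Aqp12a) and the median was 0.117 FPKM. Aqp4 was not the highest of them. Aqp1, a water channel found in many cell types, was at 31.4 FPKM (29.3 to 33.5), 1.12 times Aqp4 (1.04 to 1.22; this pair was chosen after the values were seen). In fragments implied by the bounds, which are not divided by transcript length, the order turned, with a ratio of 0.567. The other 2 at 1 FPKM or more were Aqp11 at 2.99 FPKM (2.06 to 3.93) and Mip, the lens fibre aquaporin, at 1.60 FPKM (0.743 to 2.45). Aqp4 supplied 43.3% of the summed FPKM of the family.

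The proteins that hold the Aqp4 channel at the end-foot membrane and its potassium channel partners formed a list of 12 genes with Aqp4 included. Of the other 11, 9 reached 1 FPKM, with a median of 9.28 FPKM. Kcnj10 was at 10.6 FPKM (8.96 to 12.3), and Aqp4 was 2.62 times Kcnj10 (2.23 to 3.09). Kcnj16, which encodes a subunit that can pair with the Kcnj10 channel, was the lowest at 0.156 FPKM (0 to 0.335). Dmd (dystrophin), the cytoskeletal anchor, summed to 34.5 FPKM over 2 rows (computed bounds 32.4 to 36.6), and Dag1 (dystroglycan), its membrane receptor, was at 17.4 FPKM (15.9 to 18.9). Only Dmd was above Aqp4 on this list, and its sum adds 2 separate rows. Bulk values do not say which cells the RNA of these partners, or of those on the lists below, came from.

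Mlc1, which encodes a membrane protein of glial end-feet involved in cell volume control, was at 29.1 FPKM (27.2 to 31.04). Its row (ENSRNOG00000032871) lies at 129636391 to 129656289 of chromosome 7. The adhesion protein GlialCAM, encoded by Hepacam, is its known binding partner, and Hepacam stood at 1.47 FPKM (0.794 to 2.14) on an implied 19 fragments. Mlc1 was 19.9 times Hepacam (12.6 to 31.3). Of the 9 other genes listed for this complex and for volume regulation, 6 reached 1 FPKM, with a median of 4.42 FPKM. Lrrc8b, a subunit of the volume-regulated anion channel, was at 28.8 FPKM (26.8 to 30.7), within the bounds of Mlc1. Cav1 (caveolin) led at 80.7 FPKM (77.3 to 84.1), and the swelling-activated cation channel gene Trpv4 was lowest at 0.162 FPKM (0.0297 to 0.294).

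Both acid-base genes headed their family. Car2, the cytosolic carbonic anhydrase, was at 197 FPKM (190 to 203), with 0.693% of all symbols above it. Car14, a membrane-bound carbonic anhydrase whose active site faces the outside of the cell, was at 60.1 FPKM (55.2 to 65.01), with 3.64% above it. Car2 was 3.27 times Car14 (2.996 to 3.57). The Car2 row (ENSRNOG00000009629) lies at 107871642 to 107886834 and the Car14 row (ENSRNOG00000023162) at 217500705 to 217507185, both on chromosome 2.

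Of the 14 carbonic anhydrase genes matched, 7 reached 1 FPKM, with a median of 1.06 FPKM over all 14. Car2 and Car14 together held 80.9% of the summed FPKM of the family. After these came Car11, at 31.5 FPKM (28.5 to 34.6), followed by Car8 at 18.2 FPKM (16.00 to 20.4; Car8 was named after its value was seen); both genes encode carbonic anhydrase-related proteins without the catalytic activity. Car14 was 1.91 times Car11 (1.68 to 2.16; pair chosen after the values were seen). Car3, Car5a and Car15 were listed at 0. Another membrane-bound enzyme gene, Car4, stood at 0.561 FPKM (0.137 to 0.985) and was named after its value was seen.

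Transporters that move the acid, bicarbonate and lactate handled alongside these enzymes numbered 22, of which 17 reached 1 FPKM, with a median of 4.81 FPKM. Bsg (basigin), the chaperone of the lactate transporters, stood at 390 FPKM (378 to 403), and Slc16a1, a lactate and proton cotransporter gene, at 75.4 FPKM (72.6 to 78.2). Among the bicarbonate transporters, Slc4a7 was at 38.7 FPKM (36.7 to 40.8). Slc4a4, a sodium bicarbonate cotransporter gene, stood at 1.01 FPKM (0.696 to 1.33) and was chosen after its value was seen. The proton exchanger genes Slc9a2 and Slc9a3 were listed at 0.

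**Figure D3:**
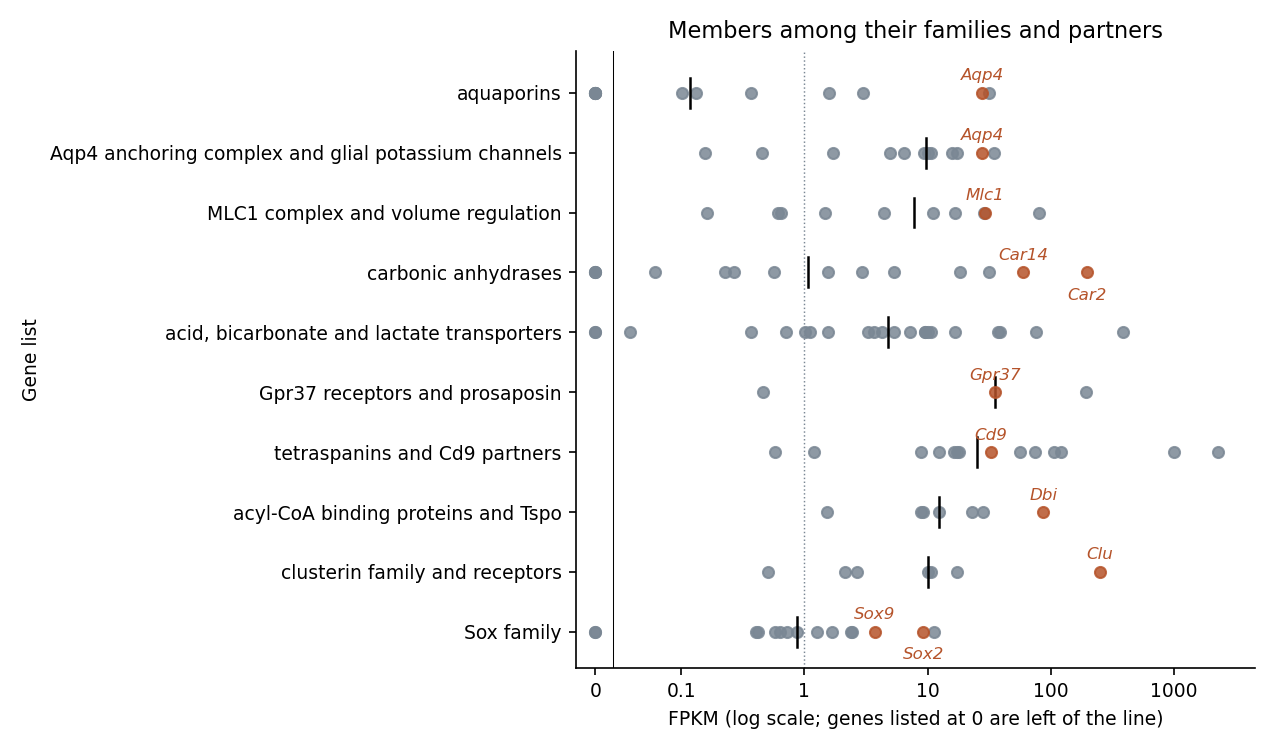
Levels in FPKM (log axis, genes listed at 0 to the left of the vertical line) of the genes in 10 lists of relatives and partners, 1 point per gene, with the 10 Müller glia genes coloured and named and a black bar at each list's median. Car2, Dbi and Clu are the highest of their lists, while Aqp4, Sox2 and Cd9 have genes above them.

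Clu, which encodes clusterin, a secreted chaperone and lipid carrier, was at 250.4 FPKM (243 to 258), and only 94 symbols of the table were higher. Its row (ENSRNOG00000016460) lies at 48926515 to 48939266 of chromosome 15. It was close to Apoe, the other abundant lipid carrier gene of Müller cells, at 273 FPKM (263 to 283), with a ratio of Clu to Apoe of 0.918 (0.877 to 0.960; pair chosen after the values were seen). In implied fragments this ratio turned to 1.44. Of 6 matched receptor genes for clusterin and related lipoproteins, 5 reached 1 FPKM, and the median was 6.36 FPKM. Vldlr was highest at 17.2 FPKM (15.9 to 18.5), followed by Lrp8 at 10.6 FPKM and Lrp1 at 10.02 FPKM. Lrp2 was at 2.15 FPKM, and Trem2, a receptor of microglia, was at 0.510 FPKM (0.0936 to 0.927). The clusterin relative Clul1 was not analysed here.

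Gpr37, a G protein-coupled receptor for which prosaposin has been described as a ligand, was at 35.3 FPKM (33.3 to 37.2). Its row (ENSRNOG00000002524) lies at 51598202 to 51620342 of chromosome 4. Its closest relative, Gpr37l1, a receptor of brain astrocytes, was at 0.460 FPKM (0.192 to 0.729) on an implied 12 fragments. Gpr37 was thus 76.6 times Gpr37l1 (43.2 to 136). Psap, which encodes prosaposin, stood at 196 FPKM (190 to 201), 5.54 times Gpr37 (5.22 to 5.89; pair chosen after the values were seen). The median of this list of 3 genes was the value of Gpr37 itself, and 2 of the 3 reached 1 FPKM.

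Cd9 encodes a tetraspanin, a membrane protein that organises adhesion molecules into clusters. It was at 32.9 FPKM (29.7 to 36.1), and its row (ENSRNOG00000019556) lies at 224989641 to 225022649 of chromosome 4. Unlike the carbonic anhydrases, it did not lead its list. Cd81, its close relative, was at 75.1 FPKM (70.6 to 79.5), so that Cd9 was 0.438 times Cd81 (0.392 to 0.490). Of the 13 other tetraspanins and Cd9 partners, 12 reached 1 FPKM, and the median of the 13 was 18.02 FPKM. Photoreceptor disc genes led, Prph2 at 2276 FPKM and Rom1 at 996 FPKM, ahead of Tspan3 at 122 FPKM (116 to 127). Cd37, a tetraspanin of lymphocytes, was lowest at 0.572 FPKM (0.140 to 1.004).

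Dbi encodes the acyl-CoA binding protein, which is also the precursor of peptides that act on GABA type A receptors. It was at 87.3 FPKM (76.5 to 98.1), the highest of 7 genes for acyl-CoA binding proteins and for the mitochondrial protein Tspo, which binds Dbi peptides. All 7 reached 1 FPKM, and the 6 others had a median of 10.8 FPKM. Acbd7, a small relative, was at 28.2 FPKM (22.9 to 33.4), Acbd3 at 23.03 FPKM, Acbd6 at 12.5 FPKM, Acbd5 at 9.13 FPKM and Acbd4 at 8.92 FPKM. Tspo was at 1.52 FPKM (0.644 to 2.41) on an implied 12 fragments, and Dbi was 57.3 times Tspo (32.1 to 102). The Dbi row (ENSRNOG00000046889) spans 41225978 to 41283626 of chromosome 13 and is the only one of the 10 that another row overlaps. That row, 3110009E18Rik (41264899 to 41329152), was at 1.27 FPKM (0.591 to 1.95) on an implied 14 fragments, against 261 for Dbi.

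The identity genes were the lowest of the 10. Sox2 was at 9.23 FPKM (8.04 to 10.4), with its row (ENSRNOG00000012199) at 140810592 to 140813001 of chromosome 2. Sox9 was at 3.75 FPKM (2.79 to 4.71), with its row (ENSRNOG00000002607) at 100965136 to 100968386 of chromosome 10. Sox2 was 2.46 times Sox9 (1.86 to 3.26). Sox9 rests on an implied 61 fragments and has the widest bounds of the 10, at 25.6% on each side, against 2.96% for Clu. Sox2 sits at the median of the symbols at 1 FPKM or more, and 47.4% of all symbols were above Sox9.

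Within the Sox family, 7 of 15 matched genes reached 1 FPKM, and the median was 0.870 FPKM. Sox12, a member of the SoxC group, was the highest matched gene at 11.3 FPKM (9.04 to 13.5), 1.22 times Sox2 with an interval that held 1 (0.968 to 1.54; pair chosen after the values were seen). In implied fragments Sox12 was the lower, at 0.427 times Sox2. Sox9 had the next lower value after Sox2. Its relatives in the SoxE group, Sox8 and Sox10, were at 1.68 FPKM (1.26 to 2.11) and 0.575 FPKM (0.318 to 0.832), both named after their values were seen. Sox14 and Sox30 were listed at 0. Sox1, Sox3, Sox4 and Sox21 were not analysed here, so the order within the family covers the matched genes alone.

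Upstream sequences were available for 7 of the 10 genes in the RefSeq promoter table of build GRCr8. The table of levels holds no measurement on promoters, so the sequences are shown as context for the highest (Dbi) and the lowest (Sox2) of these 7. The stretches end before the outermost annotated start of each gene, are written 5′ to 3′ on the strand of the gene, and come from chr13:33802633-33802868 (minus strand) and chr2:119464881-119465130 (plus strand). Capitals mark a CCAAT box (CCAAT, here on the opposite strand as ATTGG) or a GC box (GGGCGG, here on the opposite strand as CCGCCC).
Dbi: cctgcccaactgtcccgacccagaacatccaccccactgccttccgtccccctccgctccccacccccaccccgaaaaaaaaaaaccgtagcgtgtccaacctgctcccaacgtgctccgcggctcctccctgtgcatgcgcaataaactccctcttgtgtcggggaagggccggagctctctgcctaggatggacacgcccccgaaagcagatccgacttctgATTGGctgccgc
Sox2: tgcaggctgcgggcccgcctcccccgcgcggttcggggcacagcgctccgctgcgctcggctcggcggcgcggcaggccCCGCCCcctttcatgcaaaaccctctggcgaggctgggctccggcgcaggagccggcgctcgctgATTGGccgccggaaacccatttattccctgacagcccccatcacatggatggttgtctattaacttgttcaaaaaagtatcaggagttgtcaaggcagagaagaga
Both stretches hold an inverted CCAAT box, and the Sox2 stretch also an inverted GC box.

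The 7 genes have 8 windows of 250 bases before an annotated start, since Aqp4 has 2. On either strand, CCAAT was found in 4 of the 8 windows and in 34.02% of all 33469 windows of that length, and GGGCGG in 3 of 8 and in 30.5%. A TATA box (TATAAA) was in 0 of 8 windows and in 12.9% of all. Of the SOX-type motifs, ACAAAG was in 2 of 8, those of Mlc1 and 1 of the 2 starts of Aqp4, and in 16.3% of all, while ACAATG was in 0 of 8 and in 11.1% of all. The number of CG pairs ranged from 3 in an Aqp4 window to 23 in the Sox2 window, beside a median of 5 over all windows. A match describes the letters in the window and is not a binding site.

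The 10 genes were set beside markers of Müller glia and of other cells. With 1 bulk value per gene, similar levels cannot check the label of the 10 genes. All 16 further Müller glia markers reached 1 FPKM, with a median of 29.2 FPKM and a lowest value of 2.91 FPKM. The highest was the glutamine synthetase gene Glul at 617 FPKM (608 to 627), ahead of Dkk3 at 318 FPKM (311 to 325). For 1 of the 16, Lhx2, the authors' status column reads LOWDATA, and its value of 17.3 FPKM has bounds of 0 to 27.5. Car2 was 0.318 times Glul (0.307 to 0.331; pair chosen after the values were seen).

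Several of the 10 genes are also known from other cells, so those markers were measured beside them. Car2 and Gpr37 are also oligodendrocyte genes. Of 10 oligodendrocyte markers, 3 reached 1 FPKM, 3 were listed at 0 (Mobp, Olig1 and Olig2), and the list summed to 16.4 FPKM. Its highest gene, Cnp, was at 8.71 FPKM (7.55 to 9.87). Car2 was 22.6 times Cnp (19.7 to 25.8) and Gpr37 was 4.05 times Cnp (3.51 to 4.67), both pairs chosen after the values were seen. A ratio between different genes does not give the share of a cell type, and the oligodendrocytes' part in the Car2 and Gpr37 values was not tested.

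Aqp4, Mlc1 and Sox9 are also genes of astrocytes, which enter the retina along the nerve fibre layer. Of 8 astrocyte markers, 5 reached 1 FPKM and the list summed to 81.1 FPKM. Pax2, the transcription factor gene of retinal astrocytes, was listed at 0. The highest, the glutamate transporter gene Slc1a2 at 43.7 FPKM (40.7 to 46.8) and S100b at 23.6 FPKM (21.1 to 26.02), are not restricted to astrocytes in the retina. Gfap, a filament gene of astrocytes and of stressed Müller glia, stood at 8.45 FPKM (7.39 to 9.50), and Aqp4 was 3.30 times Gfap (2.90 to 3.77; gene and pair chosen after the values were seen). The astrocytes' part in the values of Aqp4, Mlc1 and Sox9 was not tested.

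Car14 is also expressed in the retinal pigment epithelium. Of 8 pigment epithelium markers, 6 reached 1 FPKM and none was listed at 0, with a summed level of 199 FPKM that came mostly from Ttr at 152 FPKM (142 to 162). The isomerase gene of the visual cycle, Rpe65, stood at 20.7 FPKM (18.8 to 22.5), and Car14 was 2.91 times Rpe65 (2.58 to 3.28; pair chosen after the values were seen). The part of pigment epithelium RNA in the Car14 value was not tested.

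Cd9 is also found on immune and vascular cells. Of 8 microglia markers, 5 reached 1 FPKM, with a sum of 17.2 FPKM and the highest, C1qa, at 5.41 FPKM (3.94 to 6.89), followed by Aif1 at 4.12 FPKM (2.37 to 5.87). All 7 vascular markers reached 1 FPKM, with a median of 2.34 FPKM. Their sum of 89.9 FPKM came mostly from Kdr at 52.2 FPKM (50.5 to 54.0) and Rgs5 at 27.1 FPKM (22.1 to 32.2). The rest of the 7, Pecam1, Cdh5, Cldn5, Tek and Pdgfrb, were at 1.91, 1.001, 3.75, 1.55 and 2.34 FPKM. They were named after their values were seen. Of 3 matched blood markers, Hbb and Hba1 were at 13.2 and 10.3 FPKM and Alas2 was listed at 0. The part of these cells in the Cd9 value was not tested.

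Sox2 is also expressed in cholinergic amacrine cells, and Clu and Car2 in retinal neurons. All 5 amacrine markers reached 1 FPKM (median 5.78 FPKM), led by Gad1 at 50.8 FPKM and Slc6a9 at 42.2 FPKM. Chat, the acetylcholine-synthesising enzyme gene of the cholinergic cells, stood at 3.08 FPKM (2.30 to 3.86) beside Sox2 at 9.23 FPKM, and was named after its value was seen. All 5 ganglion cell markers (median 18.9 FPKM, led by Thy1 at 123 FPKM and Nefl at 87.2 FPKM) and all 5 bipolar markers (median 15.1 FPKM, led by Pcp2 at 113 FPKM and Trpm1 at 60.8 FPKM) reached 1 FPKM as well. All 5 rod markers were above each of the 10 genes, with a median of 1992 FPKM and Gnat1, the rod transducin gene, at 6316 FPKM. Lens markers (5 of 5 at 1 FPKM or more, median 4.59 FPKM) were led by Cryaa at 427 FPKM and Crygs at 43.9 FPKM. The neurons' part in the values of Sox2, Clu and Car2 was not tested. Nor was the part of the grafted human cells, or of any other cell type named here, blood included, in any of the 10 values.

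**Figure D4:**
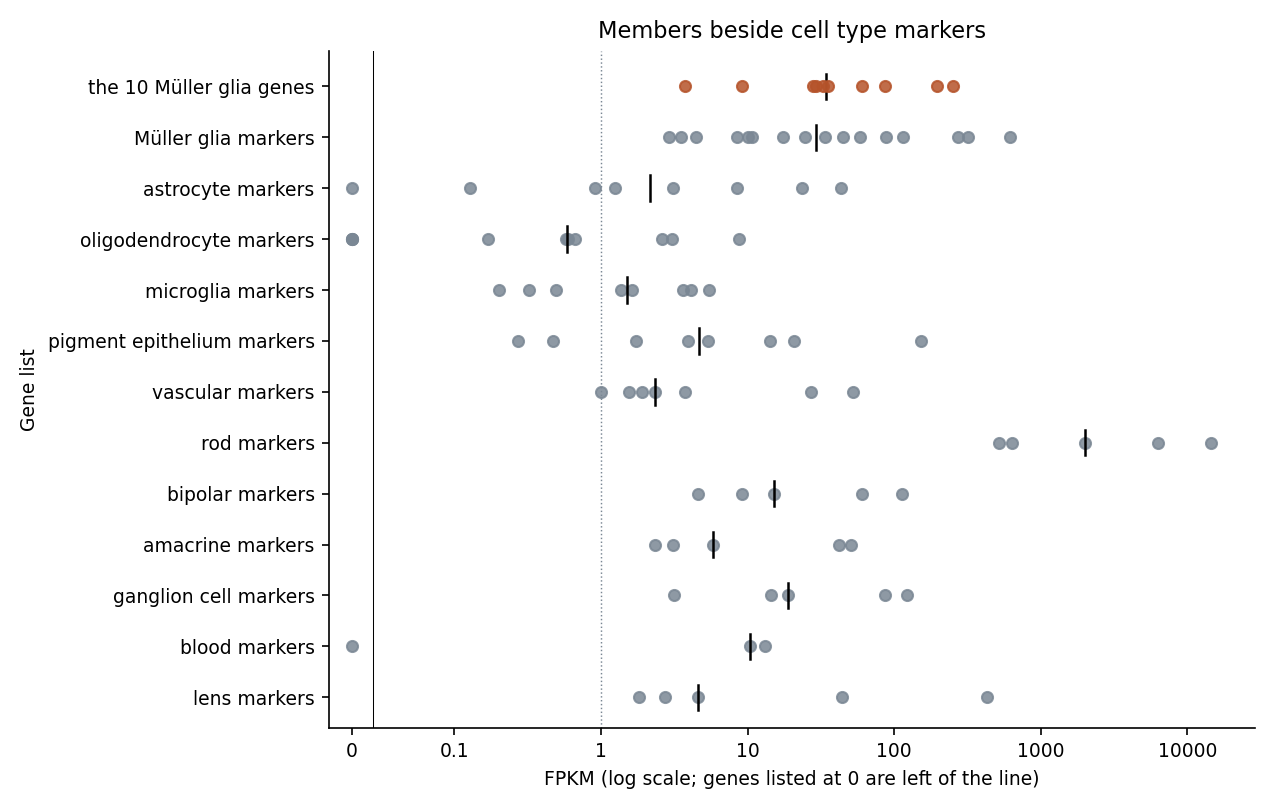
Levels in FPKM (log axis, genes listed at 0 to the left of the vertical line) of the 10 Müller glia genes (coloured) and of 12 marker lists, 1 point per gene, with a black bar at each median. The 10 genes and the Müller glia markers have medians of 34.1 and 29.2 FPKM, oligodendrocyte markers the lowest median, 0.584 FPKM, and rod markers the highest, 1992 FPKM.

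The fragment number behind a value differs from its FPKM, because a long transcript yields more fragments at the same level. If a deposited bound spans 2 standard errors of counting, the 10 genes rest on 13197 implied fragments of 6124332 in the table. The implied number lay within 0.05 of a whole number for 7 of the 10, all but Clu, Dbi and Aqp4. The same share over all rows was not computed, so the count cannot be read as particular to these genes. Clu had 4571 implied fragments, Car2 3193, Aqp4 1651, Gpr37 1281, Mlc1 923, Car14 601, Cd9 414, Dbi 261, Sox2 241 and Sox9 61. Aqp4 thus had rank 8 by FPKM and rank 3 by fragments, while Dbi had rank 3 by FPKM and rank 8 by fragments. For both of these genes the implied number was not within 0.05 of a whole number. For Dbi, 1 FPKM corresponded to 2.99 implied fragments, and for Aqp4 to 59.1.

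**Figure D5:**
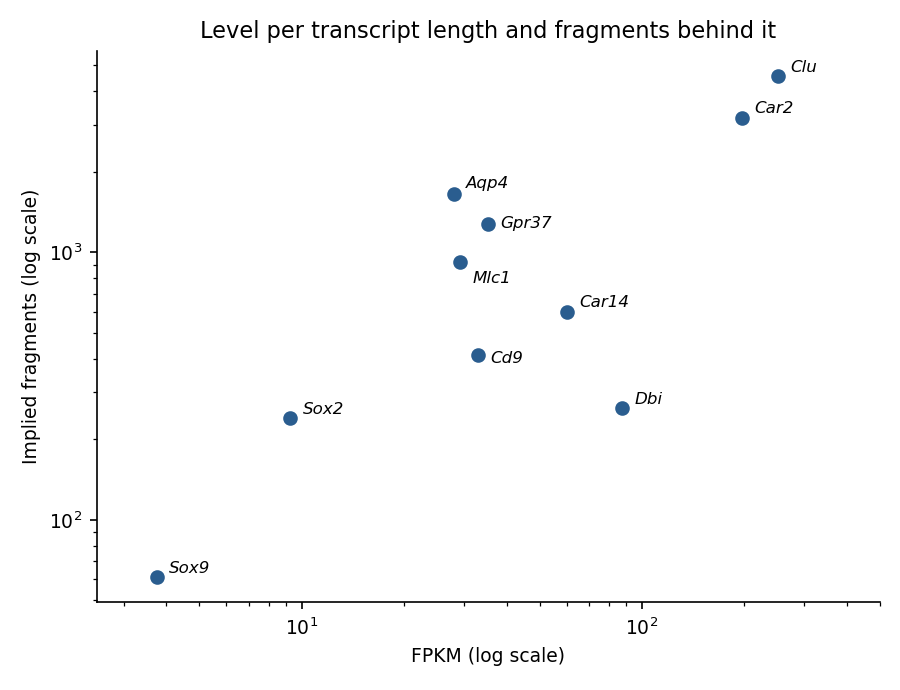
Fragments implied by the deposited bounds against FPKM for each of the 10 genes, both axes logarithmic. Dbi lies low for its level, with 261 fragments at 87.3 FPKM, and Aqp4 lies high, with 1651 fragments at 27.9 FPKM.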

How the data were processed

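Per the labels, libraries were made from retinal total RNA with the Ion Total RNA-seq kit. The authors deposited FPKM values with a lower and an upper bound for 26406 rows in the gene format of Cufflinks, per the file headers. Cufflinks 2.0.8 and build rn5 come from the submitters' processing notes; no aligner, annotation release, confidence level or pooling step is named in the labels or headers. The 10 genes and the 22 other gene lists (198 of 205 different genes matched, 7 not analysed here) were chosen with earlier results of these data known. FPKM of rows sharing a symbol in any case were summed, with bounds from the root of the summed squares. Ratio intervals (95%) and implied fragments take a bound as 2 standard errors. Both calculations were run on simulated data built with counting error alone. The simulations checked the arithmetic and cannot show whether the deposited bounds are 2 standard errors of counting. Total depth is not known. The summed implied fragments cover the deposited rows alone and need not equal the depth used to scale FPKM. The text names the 10 genes, their paired relatives, the 3 highest and the lowest or zero genes of each family list (lists of up to 8 whole), and the 2 highest and zero genes of each marker list, passing over items not reported here; others are said to be chosen after their values were seen. No test was run and no group compared. Alternatives changed row handling, minimum level, pseudocount, total and length scaling. Python 3.11.15, numpy 2.4.6, pandas 2.3.3, scipy 1.17.1 and matplotlib 3.10.9 were used.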

Additional observations from a re-analysis of the deposited data

How the results depend on the processing

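The count of 10 genes at 1 FPKM or more was 10 at a minimum of 0.1 FPKM, 9 at a minimum of 5 FPKM and 10 with the lower bound in place of the value. The median of 34.1 FPKM did not change with the highest row per symbol or exact letter case, which left the 10 rows as they were. The share of 0.214% became 0.220% with the highest row per symbol, which shrinks the total, and moved by less than its counting error under the 3 other settings. Of 16 ratios, 14 stayed within their intervals with a pseudocount of 1 FPKM; Mlc1/Hepacam became 12.2 and Gpr37/Gpr37l1 24.8, since the pseudocount is large beside the second gene. Implied fragments are not divided by transcript length. With them the median was 762 fragments, 2 ratios stayed within their intervals, and 4 crossed 1: Dbi/Car14 became 0.435, Car14/Gpr37 0.469, Cd9/Mlc1 0.449 and Mlc1/Aqp4, whose interval held 1 at the start, 0.559. The rest became 1.43 for Clu/Car2, 12.2 for Car2/Dbi, 3.09 for Gpr37/Cd9, 6.85 for Aqp4/Sox2, 3.95 for Sox2/Sox9, 5.31 for Car2/Car14, 48.6 for Mlc1/Hepacam, 10.3 for Aqp4/Kcnj10, 0.362 for Cd9/Cd81 and 21.8 for Dbi/Tspo. Of the 10 pairs chosen after the values were seen, 3 crossed 1 in implied fragments (an added setting): Aqp1/Aqp4 at 0.567, Sox12/Sox2 at 0.427 and Clu/Apoe at 1.44. Car2/Glul became 0.185, Car2/Cnp 14.2, Car14/Rpe65 1.23 and Aqp4/Gfap 6.45. No paired analysis was possible because only 1 value per gene was deposited and it names no sample. Genes on few fragments limit the depth, among them Hepacam, Gpr37l1 and Tspo. A gene at exactly 0 is described as listed at 0 and nothing more.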

Other observations

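The rows next to the 10 genes on the chromosome were chosen for reading once their values were known. Within 20 kb, 5 of the 10 genes had 7 adjoining rows with a symbol, and all 7 were below the gene they adjoin. How often this holds over all genes was not computed. With a median of 3.17 FPKM over all symbols, most rows lie below these 5 genes wherever they are. Next to Car2, the carbonic anhydrase gene Car3 was listed at 0. Both neighbours of Mlc1, Ttll8 and Mov10l1, were listed at 0. Next to Clu, Gulo was at 0.0830 FPKM (0 to 0.200) on an implied 2 fragments and Scara3 at 6.39 FPKM (5.57 to 7.20). Next to Car14, Aph1a was at 9.65 FPKM (8.34 to 10.96), 715 bases away, and next to Dbi, Tmem37 was at 1.33 FPKM (0.324 to 2.33).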
